A study of Mus musculus with 80 samples.

Results

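Gene expression in kidney cortex was compared between mice killed 7 days after an injection of 1.7 kBq 211At and mock-treated controls. The members are 6 of the 80 arrays of the series, namely 3 cortex arrays of the 1.7 kBq, 7-day group and 3 cortex arrays of the control group, chosen by their titles. All mice were adult females of the athymic BALB/c nude strain, so the T-cell deficit is shared by exposed and control animals. The exposed mice received 211At, an alpha-particle emitter, intravenously in saline, and the controls received buffered saline. The controls were killed 24 h after the mock injection, so that exposure and time since injection cannot be told apart in this comparison, and the hour of day at killing is not given in the sources used here. Cortex was dissected from medulla before RNA extraction. For orientation, values are also given for cortex 1 h and 6 h after 1.7 kBq, with 3 arrays each. The number of arrays per group equals the number of mice stated for it, and the labels do not say which arrays of different tissues share a mouse.

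The kidney cortex consists mainly of proximal tubules, which reabsorb filtered phosphate, glucose and amino acids, make glucose and oxidise fatty acids. Like most organs the kidney carries a circadian clock, in which Clock and Arntl (also called Bmal1) activate the Per and Cry genes and a set of output genes, and Per and Cry proteins then repress their own transcription. Glucocorticoids from the adrenal gland bind the glucocorticoid receptor, which induces genes such as Tsc22d3, Fkbp5 and Sgk1 and also Per1, so both lists share a member. Alpha particles damage DNA densely along short tracks, and cells answer such damage through repair factors and the transcription factor p53.

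No transcript passed the test at 7 days: 0 of 17184 probes above background were called higher and 0 were called lower than in control (0% in each direction). The thresholds were an adjusted p below 0.01 and a change of at least 1.5-fold (limma, Benjamini-Hochberg adjustment over all 17184 probes). The lowest adjusted p was 0.338. The paper used the same thresholds with other software and reports genes upregulated in kidney cortex at all exposures, 7 days included. Per1, Per2, Sgk1, G6pc, Dusp1 and Angptl4 are among them, so the outcomes differ for these genes. At an unadjusted p under 0.05, which is quoted below as a description only, 481 probes (2.8%) were higher and 428 (2.49%) lower, 909 in all, and without control replicate 1 these were 582. Among 11585 genes, each represented by its brightest probe, the corresponding shares were 2.97% and 2.68%, and the 3 arrays of 7 days lay entirely above the 3 control arrays for 7.24% of genes and entirely below them for 5.08%. The median log2 change over all genes was 0.01, with the middle of the distribution narrow: the 5th percentile was -0.23 and the 95th was 0.19. Because no gene passed the test, the genes and groups below are described by their signals in each array, and these values are log2 signal intensities unless stated otherwise.

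The dissected tissue carried the profile of proximal tubules. The brightest proximal tubule genes were Slc34a1, the main phosphate cotransporter of this segment, with log2 signals of 14.59 to 14.76 over the 6 arrays, Miox, which degrades inositol, and Keg1. Of 36 proximal tubule genes measured, 3 lay above and 0 below control without overlap, against 7.24% and 5.08% of all genes. The median log2 change of the 36 was 0.05. The arrays themselves were not all alike. Control replicate 1 correlated with the other 5 arrays at r = 0.977 to 0.985, while all other pairs reached 0.99 to 0.993. Control replicates 1 and 2 also carried high signals of adipose tissue markers, which control replicate 3 did not. In bulk tissue, fewer cells of a type and less RNA per cell cannot be told apart. Values against control replicate 3 alone are therefore given below for the main genes where they differ clearly from the value against all controls. Some genes also have a value with the adipose level of each array as a covariate. That level is the mean over the adipose tissue markers, so the covariate values of these markers are largely fixed in advance. The array with the lowest level, 8.15, was taken 6 h after 7.5 kBq and carried liver transcripts, which limits the covariate values. With a single control array the spread is taken from the other groups, so that array is assumed to vary like the rest.

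The described list with the largest share of genes above control was the circadian clock. Of 20 clock genes measured, 7 lay above the control arrays without overlap and 1 lay below, against 7.24% and 5.08% of all genes, and the same numbers had an unadjusted p under 0.05. The median log2 change of the list was only 0.13, since the other 12 genes overlapped with control. With control replicate 3 as the only control, 7 clock genes were higher and 1 lower at an unadjusted p under 0.05, against 2.42% and 2.26% of all genes in that setting, and the list median was 0.03. The median was 0.07 without control replicate 1.

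Per1, a core repressor of the clock, measured 8.77, 9.37 and 9.58 at 7 days against 7.88, 8.32 and 8.14 in control. All exposed arrays lay above all control arrays, by 2.19-fold on average (log2 change 1.13, SE 0.218, unadjusted p = 0.000169, adjusted p = 0.338). A second, dimmer Per1 probe gave a log2 change of 0.67. Its paralogue Per2 measured 9.69, 9.65 and 10.01 against 9.20, 8.84 and 8.80, a log2 change of 0.84 (SE 0.184, adjusted p = 0.435). Another Per2 probe gave 0.75, and the third, whose signal lay near background, gave 0.03. Usp2, a deubiquitinase whose transcript follows the clock, measured 10.43, 10.31 and 10.65 against 9.55, 9.85 and 9.47. It had the smallest unadjusted p of the clock list, 8.97e-05, with a log2 change of 0.84 (SE 0.15, adjusted p = 0.338), and its other 2 probes were also higher, by 0.36 and 0.24.

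Dbp, a transcription factor of clock output, was the brightest of these genes, with 12.29, 12.17 and 12.04 against 11.54, 11.63 and 10.97 (log2 change 0.79, SE 0.251; 1.2 against control replicate 3). Ciart, a repressor of Clock and Arntl, measured 7.77, 7.71 and 7.77 against 7.21, 7.10 and 6.90 (0.68, SE 0.158). Noct, a phosphatase with strong daily rhythm, measured 8.52, 9.05 and 9.01 against 8.20, 8.17 and 8.01 (0.73, SE 0.339), and Per3 differed by 0.25 (SE 0.0719). Arntl, the activator of the same loop, was the only clock gene below control without overlap. Its signals were 7.12, 7.21 and 7.11 against 7.37, 7.57 and 7.69, a log2 change of -0.40 (SE 0.128, unadjusted p = 0.00827, adjusted p = 0.907). Its partner Clock measured 9.58, 9.29 and 9.27 against 9.35, 9.56 and 9.56, and Nr1d1 measured 8.51, 8.37 and 8.38 against 8.04, 8.40 and 8.26, so both overlapped with control.

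**Figure D1:**
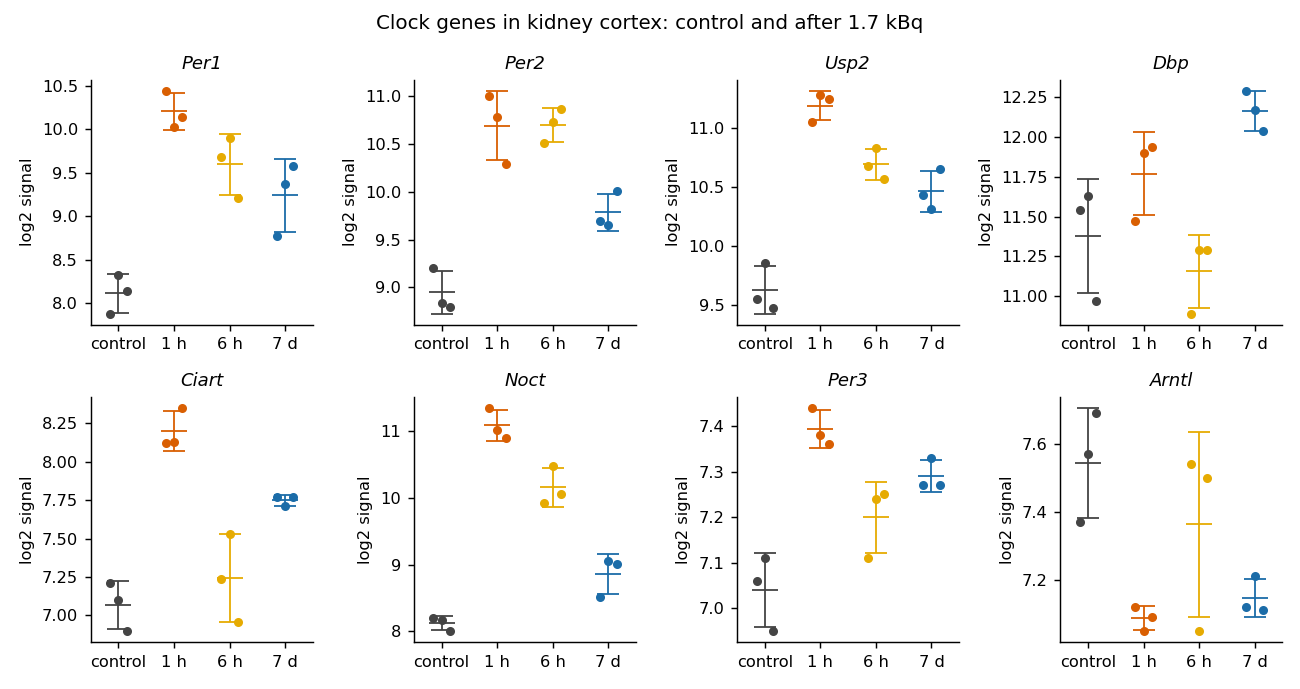
Log2 signal of 8 clock genes in kidney cortex of control mice and of mice killed 1 h, 6 h or 7 d after 1.7 kBq; points are single arrays, bars are mean ± SD of 3 arrays. For Per1, Per2, Usp2, Dbp, Ciart, Noct and Per3 the 7-day arrays all lie above the control arrays, and for Arntl they lie below.

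Promoters of the clock genes were searched for the E-box CACGTG, which Clock and Arntl bind, and for the D-box TTATGTAA, which Dbp and its relatives bind. RefSeq promoter windows (GRCm38.p6, 250 bases before to 50 after the start) were at hand for 17 of the 20 clock genes measured, and both strands were read. Some genes have several windows. An E-box stood in at least 1 window of 3 of the 17 genes and a D-box in 1, compared with 8.09% and 1.11% of all 27025 genes with a window (7.15% and 0.938% of all 32851 windows). Among the 6 genes with a window whose arrays lay above control, 2 held an E-box (Per1 and Ciart) and 1 held a D-box (Per3). These 3 are shown because they are the members above control in which a motif occurs, with the motif in capitals. The Per1 window is chr11:69098763-69098808, plus strand, with the E-box starting 166 bases before the start. The Ciart window is chr3:95882247-95882364, minus strand, with 3 E-boxes, and the Per3 window is chr4:151044796-151044890, minus strand, with 2 D-boxes. A match describes the letters in the window and not the binding of a factor.
Per1: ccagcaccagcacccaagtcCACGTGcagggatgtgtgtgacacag
Ciart: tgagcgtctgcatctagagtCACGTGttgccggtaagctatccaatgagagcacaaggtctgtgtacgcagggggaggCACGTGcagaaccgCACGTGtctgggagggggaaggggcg
Per3: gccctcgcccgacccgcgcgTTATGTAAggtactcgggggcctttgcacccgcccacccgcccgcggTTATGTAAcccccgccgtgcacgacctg

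Among 17 measured targets of the glucocorticoid receptor, 5 lay above control without overlap and 0 below, against 7.24% and 5.08% of all genes. Their median log2 change was 0.21, and 0.24 against control replicate 3 alone. It was 0.10 without control replicate 2 and 0.32 without 7-day replicate 1. Of the 17, 3 had an unadjusted p under 0.05 (2.97% of all genes). Per1 belongs to this list too. Sgk1, a kinase that raises sodium reabsorption, measured 11.74, 11.41 and 11.99 at 7 days against 10.61, 11.07 and 10.94 in control, a 1.79-fold difference (log2 change 0.84, SE 0.224, unadjusted p = 0.0024, adjusted p = 0.784). Angptl4, an inhibitor of lipoprotein lipase, measured 9.99, 9.89 and 10.09 against 9.44, 9.42 and 8.06. The exposed arrays were tightly grouped and the controls were not, so the log2 change of 1.02 (SE 0.475) was 1.93 against control replicate 3 alone. Dusp1, a phosphatase that switches off MAP kinases, measured 10.64, 10.54 and 11.07 against 9.42, 10 and 10.37 (0.82, SE 0.409), and 0.38 against control replicate 3. Errfi1, an inhibitor of the EGF receptor, was higher by 0.59 (SE 0.23).

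Tsc22d3, Fkbp5 and Pck1, also targets of the receptor, overlapped with control. Tsc22d3, which encodes the anti-inflammatory protein GILZ, measured 9.72, 9.63 and 10.16 against 9.64, 9.49 and 9.23, and the groups overlapped (log2 change 0.38, SE 0.242, unadjusted p = 0.141; 0.60 against control replicate 3). Fkbp5, a co-chaperone of the receptor, measured 7.46, 7.63 and 7.89 against 7.67, 7.64 and 7.63, a difference of 0.02 (SE 0.255). Pck1 measured 10.08, 10.41 and 10.16 against 11.04, 9.32 and 9.49. G6pc, which releases glucose from glucose 6-phosphate in the proximal tubule and liver, measured 12.06, 12.12 and 11.68 against 11.10, 11.56 and 11.09 (0.70, SE 0.294, unadjusted p = 0.0328), without overlap.

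Of 17 immediate early genes measured, 3 lay above control and 1 below without overlap, against 7.24% and 5.08% of all genes, and the list median of 0.04 was -0.06 against control replicate 3. Ier3, an early gene linked to cell survival, measured 10.21, 10.74 and 11.01 against 10.07, 9.93 and 9.70 (0.75, SE 0.182, unadjusted p = 0.00119). The classical members Fos and Egr1 overlapped with control, with log2 changes of 0.05 and -0.10. Ccn2 (connective tissue growth factor), a matrix protein induced by TGF-beta and stretch, measured 11.01, 11.09 and 11.38 against 9.85, 10.51 and 10.41, with a log2 change of 0.90 (SE 0.186, unadjusted p = 0.000314, adjusted p = 0.338). Its relative Ccn1 was higher by 0.68 (SE 0.196), and by 0.45 against control replicate 3.

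**Figure D2:**
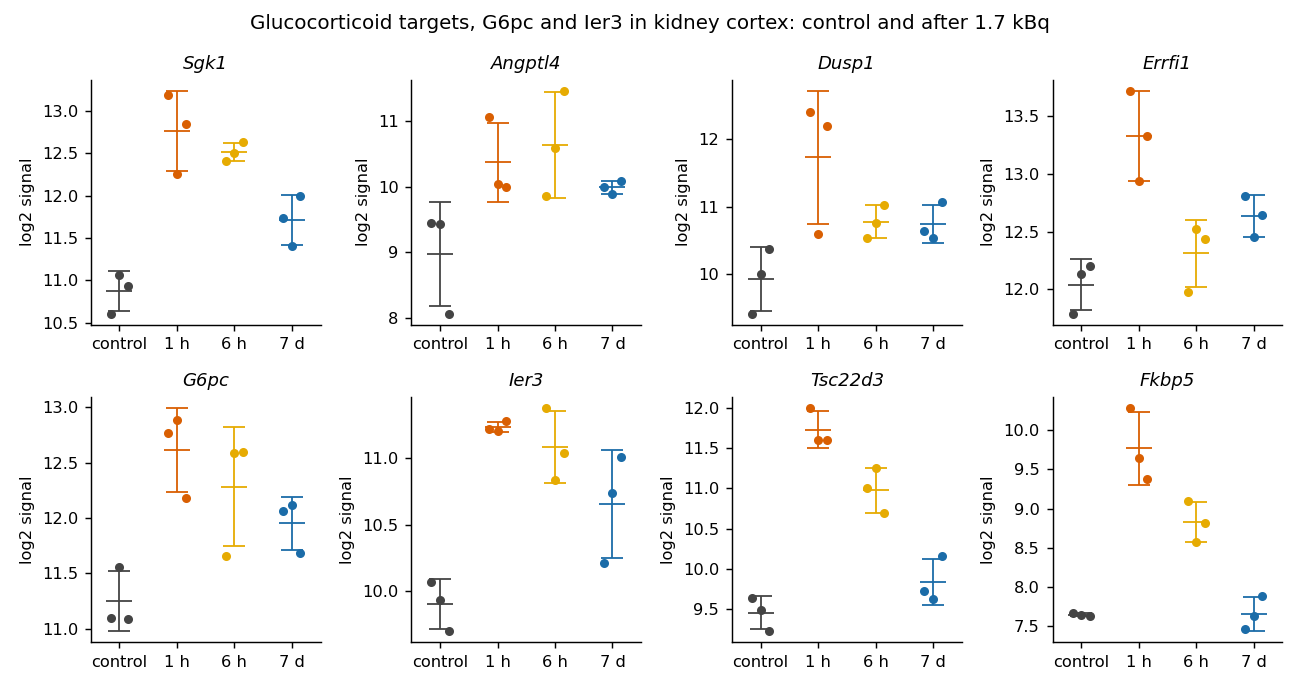
Log2 signal of 6 glucocorticoid targets and of G6pc and Ier3 in kidney cortex of control mice and of mice killed 1 h, 6 h or 7 d after 1.7 kBq; points are single arrays, bars are mean ± SD of 3 arrays. Sgk1, Angptl4, Dusp1, Errfi1, G6pc and Ier3 lie above control in all 7-day arrays, while Tsc22d3 and Fkbp5 lie far below their 1 h signals and overlap with control.

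Measured directly against the earlier time points, some transcripts differed by the test. These comparisons do not use the control arrays, so a call can reflect the state at the earlier time rather than at 7 days. Against 1 h after 1.7 kBq, 21 probes passed the test, 6 higher at 7 days (0.0349% of probes) and 15 lower (0.0873%). Against 6 h, 6 were higher (0.0349%) and 1 was lower (0.00582%). The counts depended on single arrays. Against 1 h they were 5 to 8 without any 1 of the 7-day arrays or without 1 h replicate 1 or 3, and 18 without 1 h replicate 2. Against 6 h they were 0 or 1 without any 1 array of either group. Fkbp5 fell furthest, from 10.28, 9.64 and 9.38 at 1 h to 7.46, 7.63 and 7.89 at 7 days (log2 change -2.10, SE 0.255, adjusted p = 0.00325, limma). Tsc22d3 fell from 12, 11.60 and 11.60 to 9.72, 9.63 and 10.16 (-1.90, SE 0.242, adjusted p = 0.00426), at 1 of its 2 probes. Noct, with a larger difference of -2.22, narrowly missed the threshold (adjusted p = 0.0103).

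Chaperones were among the other transcripts that fell. Of 19 cytosolic heat shock and folding genes, 4 were lower at 7 days than at 1 h by the test (0.104% of all genes) and 13 at an unadjusted p under 0.05 (5.38% of all genes). The latter count was also 13 of 19 among endoplasmic reticulum stress genes, 9 of 17 among glucocorticoid targets and 8 of 20 among clock genes. Among the 4 was Hspa1a (inducible Hsp70), with 7.74, 7.82 and 7.60 at 7 days against 9.08, 9.25 and 8.93 (-1.37, adjusted p = 0.00168). Hsph1 differed by -1.36 and Stip1, which links Hsp70 to Hsp90, by -0.99. Creld2, an endoplasmic reticulum stress gene, fell at both of its probes, by 1.42 and 1.27 on the log2 scale. At 1 h the same probes had exceeded control by 1.40 and 1.33. At 7 days Hspa1a, Hsph1, Stip1 and Creld2 differed from control by at most 0.35 on the log2 scale. Hsp90b1, the chaperone Grp94 of the endoplasmic reticulum, was lower at 7 days than at both earlier times, by -0.83 against 1 h and -0.75 against 6 h (adjusted p = 0.00168 and 0.00662). Its 7-day signals of 11.86, 11.92 and 11.86 also lay below the control signals of 12.44, 12.17 and 12.24 (log2 change -0.40, SE 0.0932, unadjusted p = 0.000876).

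Per1 and Per2 lay between control and 1 h at 7 days, while Dbp averaged 12.17 at 7 days and 11.77 at 1 h. One Per2 probe was lower than at 1 h by the test (log2 change -1.02, adjusted p = 0.00558), with 9.39, 9.21 and 9.74 at 7 days, 10.58, 10.58 and 10.25 at 1 h, and 8.74, 8.68 and 8.68 in control. Per1 stood at 9.24 on average, between 8.11 in control and 10.20 at 1 h, and its 7-day and 1 h signals did not overlap (difference -0.96, SE 0.218, adjusted p = 0.0613). Transcripts that rose from 1 h to 7 days were led by Cirbp, a cold-inducible RNA-binding protein, from 7.31, 7.41 and 7.42 to 8.59, 8.57 and 8.88 (1.30, SE 0.19, adjusted p = 0.0075). Ell3, an elongation factor, and Tmem174, a membrane protein, rose by 1.24 and 0.87. All 3 exceeded their 1 h signals in every 7-day array, and their 7-day means differed from control by 0.29 to 0.32. Mrnip, an interactor of the MRN DNA damage complex, rose against both 1 h (0.67) and 6 h (0.71), and differed from control by 0.01. Against 6 h, the largest increases were those of Acsm5 (0.92), a mitochondrial acyl-CoA synthetase, and Olfml1 (0.75).

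Among the gene lists, adipose tissue markers had the lowest median against control. All 14 measured adipose tissue markers had lower means at 7 days (46.7% of all genes), with a median log2 change of -0.88, and 8 had an unadjusted p under 0.05 (2.68% of genes), but only 4 lay below control without overlap (5.08% of genes). Adipoq, the adipocyte hormone adiponectin, measured 9.22, 8.79 and 9.15 at 7 days against 11.58, 11.48 and 9.01 in control. Control replicate 3 was thus as low as the exposed arrays, and the log2 change of -1.64 (SE 0.695) became 0.05 against this array alone. Car3, carbonic anhydrase 3, measured 10.04, 9.12 and 9.40 against 11.86, 12.44 and 10.07, and Cidea, a lipid droplet protein of brown fat, measured 7.33, 8.19 and 7.50 against 10.42, 10.49 and 7.63. Against control replicate 3 their log2 changes were -0.55 and 0.05. Summed over the list, the signal was 14881 to 16089 at 7 days and 16353 to 43854 in control, while it spanned 16524 to 36900 at 1 h and 18452 to 41835 at 6 h. The list median was -0.01 against control replicate 3 alone and -0.57 without control replicate 1.

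Genes of cholesterol and fatty acid synthesis were lower as well. Of 31 measured, 26 had lower means (46.7% of all genes), 10 lay below control without overlap (5.08%) and 12 were lower at an unadjusted p under 0.05 (2.68%), with a median log2 change of -0.30. The list median lay below control at the earlier times too, at -0.26 for 1 h and -0.15 for 6 h. Between 7 days and 1 h the median difference was -0.07, so most of the shift against control was already present at 1 h. Several of the 31 genes are also highly expressed in fat and moved with the adipose markers. Scd1 belongs to both lists, so its likeness to the adipose markers is built in. Thrsp, a lipogenic nuclear protein, measured 8.72, 8.32 and 8.36 against 10.93, 10.94 and 8.53, Acaca (acetyl-CoA carboxylase) measured 10.25, 10.30 and 10.03 against 12.09, 12.04 and 10.20, and Scd1 (stearoyl-CoA desaturase) measured 12.75, 12.50 and 12.24 against 14.17, 14.08 and 12.47. Against control replicate 3 alone, the log2 changes of these genes were -0.06, -0.01 and 0.04.

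Srebf1, which encodes the transcription factor SREBP-1 that drives this pathway, behaved differently. Its signals of 7.13, 7.20 and 7.12 lay below all 3 controls, at 7.59, 7.60 and 7.44, and it had the smallest unadjusted p of all the listed genes, 7e-05 (log2 change -0.40, SE 0.0696, adjusted p = 0.338). Against control replicate 3 alone it was -0.29, and with the adipose level of each array as a covariate it was -0.37. Elovl5, an elongase, measured 11.13, 11.25 and 11.27 against 11.59, 11.83 and 11.56 (-0.44, SE 0.135; -0.35 against control replicate 3). Lss, lanosterol synthase, differed by -0.33 (SE 0.0956), and by -0.21 against control replicate 3. For the list, the median against control replicate 3 was -0.15 and 1 gene was lower at an unadjusted p under 0.05 (2.26% of all genes in that setting). With the adipose level as a covariate, 7 were lower at that level (1.82% of all genes). Whether the fat content of the dissected samples produced the differences in this list was not tested.

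**Figure D3:**
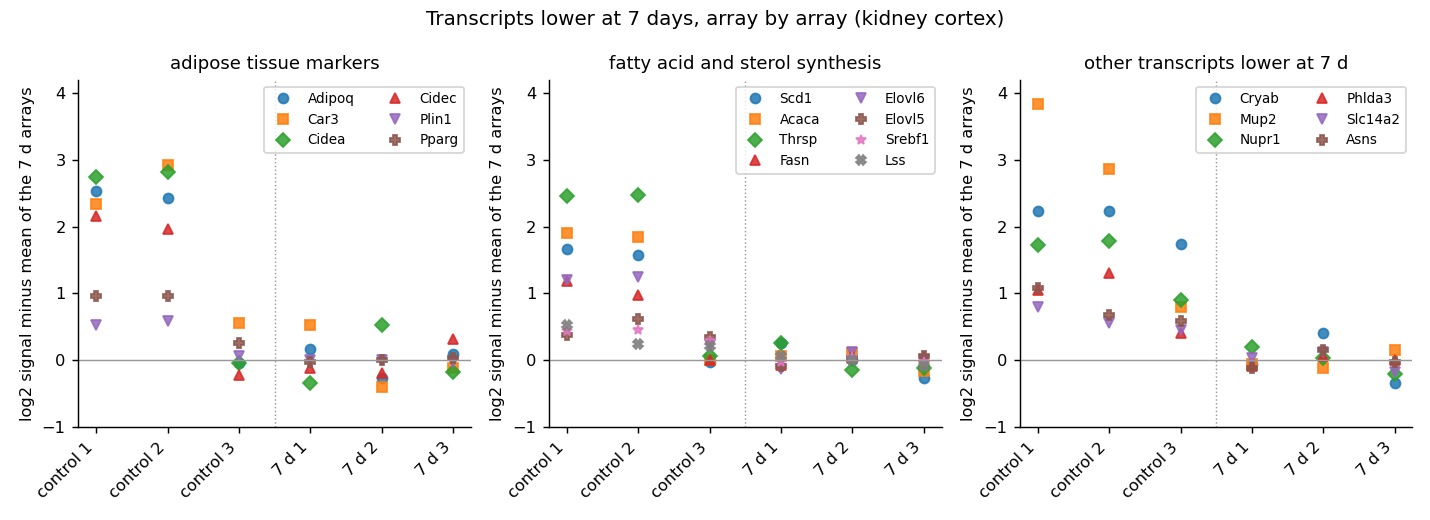
Log2 signal minus the mean of the 7-day arrays, for each control and 7-day array of kidney cortex, in adipose markers, lipid synthesis genes and other transcripts lower at 7 days; each point is 1 array. In the adipose panel control replicate 3 sits with the 7-day arrays, whereas Cryab, Nupr1 and Srebf1 lie above the 7-day arrays in all 3 controls.

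Outside lipid metabolism, Cryab lay well below control in all exposed arrays. This small heat shock protein, abundant in the renal medulla, measured 7.56, 8.03 and 7.28 at 7 days against 9.86, 9.85 and 9.36, a 4.19-fold difference (log2 change -2.07, SE 0.418, unadjusted p = 0.000265, adjusted p = 0.338). The log2 change was -1.74 against control replicate 3 and -1.33 with the adipose covariate. Cryab means at 1 h and 6 h also lay below control, by log2 changes of -0.94 and -1.05. The cortex signal was below that of control medulla, 11.14 on average. Of 15 medullary nephron genes measured, 7 lay below control without overlap and 0 above, against 5.08% and 7.24% of all genes. At an unadjusted p under 0.05, 5 were lower (2.68% of all genes), and 2 with the adipose covariate (1.82%), while the list median was -0.10. The list also holds the urothelial gene Upk1b, which is described again below. Slc14a2, the urea transporter of the inner medulla, measured 6.79, 6.87 and 6.58 against 7.54, 7.31 and 7.20 (-0.61, SE 0.182; -0.26 with the adipose covariate), with a control medulla mean of 10.64. Its 7-day cortex signals lay near the background cutoff. Aqp2, the vasopressin-regulated water channel of the collecting duct, measured 8.41, 8.53 and 8.55 against 9.06, 8.82 and 8.97 (-0.45, SE 0.129). The summed signal of the medullary list was 36071 to 46362 at 7 days and 40097 to 45025 in control, so that these ranges overlapped. Of 24 collecting duct genes, 20 had lower means (46.7% of all genes), with a median of -0.13 that was 0.01 against control replicate 3. The share of medullary tissue in each dissected sample was not tested as a source of these differences.

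Heat shock and folding genes had lower means in 16 of 19 cases (46.7% of all genes), with a median of -0.16. Of these, 2 lay below control without overlap (5.08% of all genes), 1 of them Cryab, and the median against control replicate 3 was -0.05. Of 19 endoplasmic reticulum stress genes, 15 had lower means (46.7% of all genes), and the median was -0.08 (-0.09 against control replicate 3). Without overlap, 4 lay below and 1 above control (5.08% and 7.24% of all genes). The gene above control, Herpud1, which takes part in the degradation of misfolded proteins, was higher at both probes, with 12.84, 12.85 and 13.18 against 12.26, 12.40 and 12.44 at the brighter one (0.60, SE 0.119, unadjusted p = 0.000235, adjusted p = 0.338) and 0.77 at the other. The chaperones Hsp90b1 and Hyou1 were lower, the second by -0.44 (SE 0.129; -0.28 against control replicate 3).

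Among genes of the amino acid deprivation response, 6 of 19 measured lay below control without overlap and 0 above, against 5.08% and 7.24% of all genes. At an unadjusted p under 0.05, 3 of the 19 were lower (2.68% of all genes), and 1 with the adipose level as a covariate (1.82%). Nupr1, a stress-induced chromatin protein, measured 8.76, 8.60 and 8.37 against 10.29, 10.35 and 9.47 (-1.46, SE 0.352, unadjusted p = 0.0011), with -0.90 against control replicate 3 and -0.65 with the adipose covariate. Asns, asparagine synthetase, measured 8.05, 8.33 and 8.15 against 9.25, 8.84 and 8.75 (-0.77, SE 0.303; -0.22 with the adipose covariate), and Atf5 was lower by -0.70 (SE 0.305). Atf4, the transcription factor at the head of this response, differed by -0.19. The medians of the list were -0.08 against all controls and -0.17 against control replicate 3.

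Genes of the DNA damage response were examined next. Of 32 DNA repair and checkpoint genes, 0 had an unadjusted p under 0.05 in either direction (2.97% and 2.68% of all genes), and the median was 0.02. Parp1, a sensor of strand breaks, measured 9.32, 9.34 and 9.55 against 9.21, 9.30 and 9.19 (0.17, SE 0.0791). Of 21 p53 targets, 13 had lower means (46.7% of all genes), with a median of -0.08. Without overlap, 3 lay below and 1 above control (5.08% and 7.24% of all genes), and 1 was lower at an unadjusted p under 0.05 (2.68%). Against control replicate 3 the median was -0.16, with 18 of 21 lower (46.7% of all genes in that setting). Phlda3, an inhibitor of Akt signalling, measured 7.46, 7.60 and 7.55 against 8.59, 8.85 and 7.94 (-0.92, SE 0.245, adjusted p = 0.784), with -0.40 against control replicate 3 and -0.37 with the adipose covariate. The cell cycle inhibitor Cdkn1a measured 7.69, 7.77 and 7.37 against 7.40, 7.36 and 7.95. Mdm2 was lower by -0.13 (SE 0.103). In the kidney injury list, 2 of 18 genes measured lay above control without overlap and 0 below, against 7.24% and 5.08% of all genes. The 2 were Ccn2 and Ccn1, given above, while the list median was -0.06. Its members Havcr1 and Lcn2 overlapped with control.

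Fatty acid oxidation and detoxification genes held values on both sides of control. Of 31 measured genes of the PPAR alpha list, 7 lay above and 2 below control without overlap (7.24% and 5.08% of all genes), with a median of 0.09. Acot3, a peroxisomal acyl-CoA thioesterase, measured 11.19, 10.52 and 10.32 against 9.92, 9.72 and 9.36 (1.01, SE 0.28, unadjusted p = 0.00318, adjusted p = 0.853), and 1.32 against control replicate 3. Ppara itself measured 7.61, 7.53 and 7.74 against 7.11, 7.42 and 7.30 (0.35, SE 0.133). In xenobiotic metabolism, 5 of 37 lay above and 3 below without overlap, against 7.24% and 5.08% of all genes. Cyp2a5, a coumarin hydroxylase, measured 12.10, 11.92 and 12.45 against 10.97, 11.74 and 11.31 (0.82, SE 0.335), and its 3 other probes were higher by 0.82, 0.85 and 0.38. Slc25a25, a mitochondrial ATP-Mg/phosphate carrier, measured 9.05, 9.25 and 9.10 against 8.42, 8.15 and 8.06 (0.92, SE 0.351).

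Of 22 complement and acute phase genes, 3 lay above and 2 below control without overlap (7.24% and 5.08% of all genes), and the control arrays differed among themselves. C4b measured 10.54, 10.74 and 11.24 at 7 days against 9.18, 9.96 and 10.53 (0.95, SE 0.361), and 0.31 against control replicate 3. Cfi, the protease that inactivates C3b and C4b, measured 10.16, 9.97 and 10.05 against 8.99, 8.76 and 9.83 (0.87, SE 0.324), and 0.23 against control replicate 3. In antigen presentation, 19 of 22 genes had higher means and 3 lower ones, against 46.7% of all genes with lower means. The median was 0.18, yet 0 lay above control without overlap (7.24% of all genes). Cd74, the invariant chain of class II molecules, measured 11.72, 11.63 and 12.87 against 10.18, 11.64 and 11.69 (0.90, and 0.38 against control replicate 3). The mean of the list was 9.53 in 7-day replicate 3 against 8.75 and 8.74 in the other exposed arrays, and 8.42 in control replicate 1 against 8.88 and 8.94, so that 1 exposed array stood high and 1 control array low. Of 31 interferon response genes, 18 had higher and 13 lower means (46.7% of all genes were lower), with a median of 0.01. Against control replicate 3 the median was -0.16, with 27 lower (46.7% of all genes in that setting).

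Transcripts more typical of liver or urothelium gave some of the largest fold differences, with uneven control signals. Mup2, a major urinary protein, measured 7.12, 7.06 and 7.32 against 11.01, 10.04 and 7.96 (log2 change -2.50, SE 0.705), with -0.79 against control replicate 3, and its second probe differed by -0.60. Mup6 differed by -1.73, or -0.32 against control replicate 3, and the Mup genes are nearly identical in sequence, so the assignment to single members is uncertain. Over 19 hepatocyte genes the median was 0.00, and the summed signal was 3421 to 4776 at 7 days and 4532 to 6373 in control. Psca, a surface antigen of urothelium, measured 6.92, 7.39 and 7.05 against 9.17, 8.11 and 7.51, and Upk1b, a uroplakin, measured 6.98, 6.87 and 6.75 against 8.48, 8.0 and 7.06. For both, control replicate 1 was highest, and the log2 changes of -1.15 and -0.98 were -0.39 and -0.19 against control replicate 3, and -0.69 and -0.66 without control replicate 1. The 7-day signals of Upk1b lay near the background cutoff. Ifi27l2a, an interferon-inducible gene, measured 10.80, 10.52 and 10.10 against 11.89, 11.82 and 10.80 (-1.03, and -0.33 against control replicate 3).

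**Figure D4:**
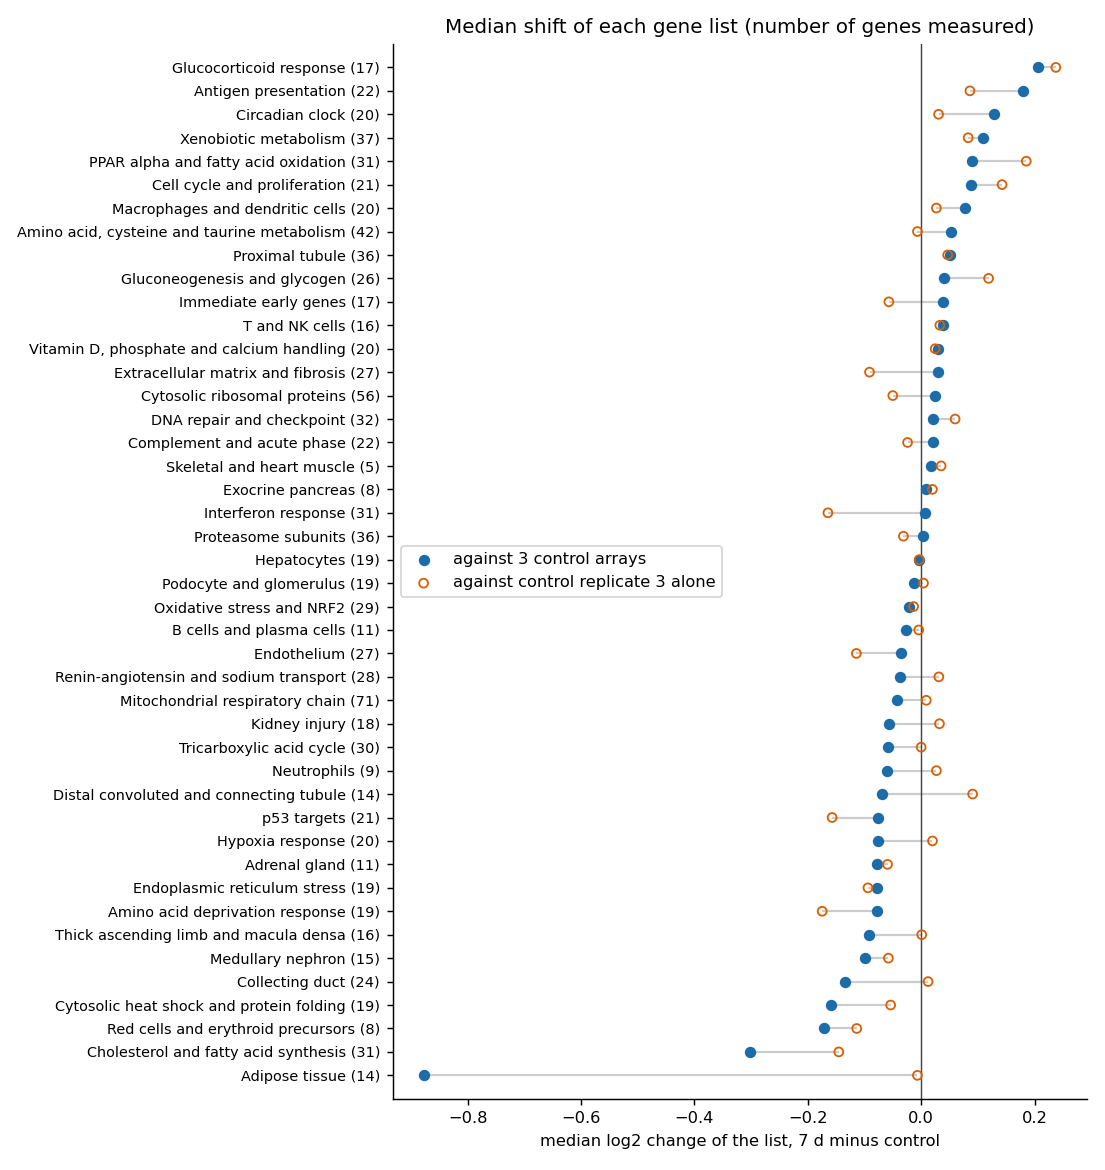
Median log2 change, 7 days minus control, of 44 gene lists with the number of genes measured; filled points use 3 control arrays and open points control replicate 3 alone. The glucocorticoid list (0.21 and 0.24) stays on the higher side with either control, whereas the adipose list moves from -0.88 to -0.01.

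The dissected medulla of the same treatment groups gave a second set of values. It comprised 2 arrays of 7 days, and 3 control arrays. The first 7-day replicate was left out, since its 19 hepatocyte genes averaged 13.80 on the log2 scale, compared with 7.35 to 7.48 in the other 5 medulla arrays. No probe passed the test for a different 7-day change in cortex and medulla (0 called in each direction, 0%; 679 probes, 3.95%, at an unadjusted p under 0.05; lowest adjusted p 0.223). Several genes above control in cortex were also above it in medulla. Per1 differed from control by 1.13 (SE 0.218) in cortex and 1.21 (SE 0.245) in medulla, Per2 by 0.84 and 0.89, Dbp by 0.79 and 0.93, Arntl by -0.40 and -0.50, Sgk1 by 0.84 and 0.79, and Ccn2 by 0.90 and 1.07. Ciart was an exception, at 0.68 in cortex and 0.20 in medulla, with a difference of 0.48 (SE 0.211, adjusted p = 1.0).

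Several genes below control in cortex stood near control in medulla. Cryab differed by -2.07 in cortex and -0.10 in medulla, a difference of -1.96 (SE 0.626, unadjusted p = 0.00473, adjusted p = 1.0). The corresponding values were -1.46 and 0.16 for Nupr1, -0.92 and 0.13 for Phlda3, -2.50 and -0.07 for Mup2, and -1.07 and -0.08 for Scd1. The cortex values of all 4 were smaller in size against control replicate 3 alone, as given above. Adipoq and Car3 averaged 7.40 and 7.63 in control medulla, below their control cortex means of 10.69 and 11.46. The control medulla arrays were uneven for both, with SDs of 1.07 and 1.55. Asns, at -0.77 and -0.53, and Srebf1, at -0.40 and -0.30, were lower in both.

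**Figure D5:**
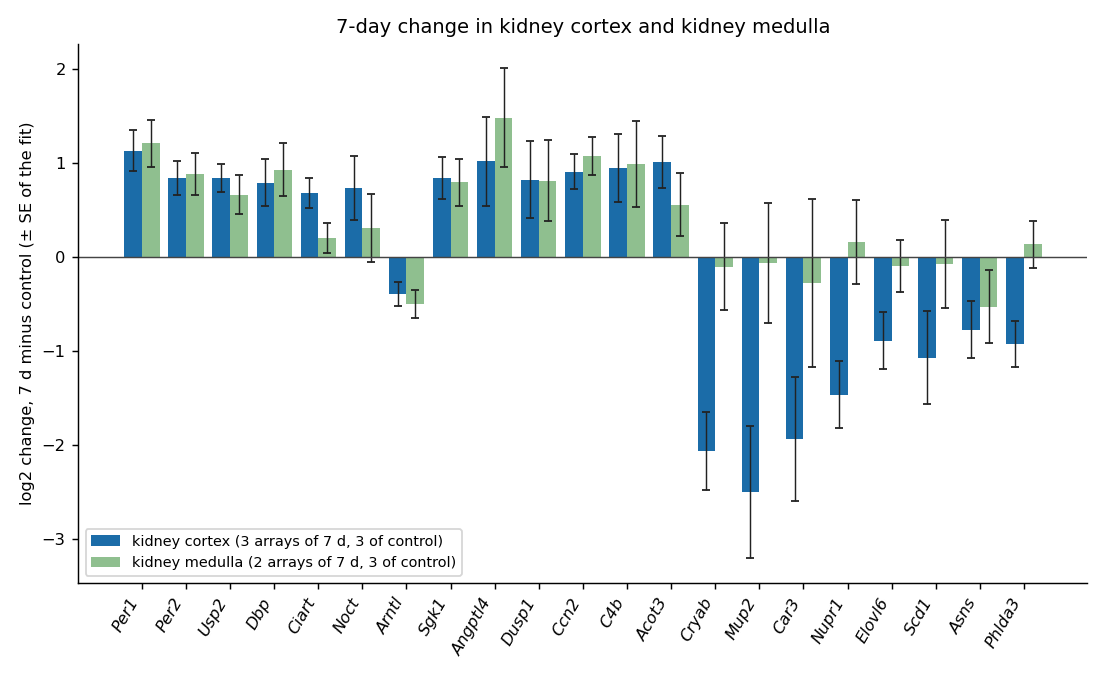
Log2 change, 7 days minus control, of 21 genes in kidney cortex (3 arrays per group) and kidney medulla (2 arrays of 7 days, 3 of control); bars are estimates, whiskers ± SE of the fit. Clock genes, Sgk1, Angptl4 and Ccn2 have the same sign in both tissues, whereas Cryab, Mup2 and Nupr1 are low in cortex and within 0.16 of control in medulla.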

How the data were processed

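Total RNA of kidney cortex was hybridised to Illumina MouseRef-8 BeadChips. The authors deposited quantile-normalised signal intensities of 25697 probes (88.7 to 27812, median 120.5; background not subtracted), which were taken as log2. The labels and methods name no version of the scanner software. A second signal table was not used, as its 80 signal columns carry no sample names that match the labels. Probes above a cutoff of 115.9 in at least 2 of the 16 cortex arrays were kept (17184, of which 16149 had a gene symbol from the platform annotation, which gave 23978 of all probes 1 symbol and 1719 none); the cutoff is the 99% quantile of a background distribution with mode 105.5 and SD 4.48. One limma fit (version 3.58.1, R 4.3.3) had 6 group means over 16 arrays, with Benjamini-Hochberg adjustment; regulated meant an adjusted p below 0.01 and at least 1.5-fold. The methods mention technical triplicates, and the table holds 1 column per labelled sample, so p-values measure only the spread between these arrays. One array 6 h after 7.5 kBq carried hepatocyte transcripts (list mean 12.17 on the log2 scale, at most 7.72 in the compared arrays) and stayed in this fit, which widens the SE of such genes. It also stayed in the fit with the adipose covariate, where its adipose level of 8.15 was the lowest of the 16 arrays. With that covariate the hepatocyte list median went from -0.0036 to -0.99. How far this array shifts the covariate values of other genes was not tested. The number of arrays limits precision.

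A gene was represented by its brightest probe. Members and gene lists were chosen with earlier results of these data known. Named genes were 7 genes from the paper's text, the 8 largest differences in each direction without overlap, up to 4 genes per list (6 for the clock) by smallest p, the 3 largest changes in each direction of direct comparisons and the 3 brightest tissue markers. Arntl, Noct, Clock, Nr1d1, Pck1, Fos, Egr1, Adipoq, Cidea, Thrsp, Acaca, Hspa1a, Hsph1, Stip1, Cdkn1a, Mdm2, Havcr1 and Lcn2 were named after their values were seen. Alternatives changed the arrays, filter, background, normalisation, test and control arrays.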

Additional observations from a re-analysis of the deposited data

Results flagged for a closer look

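Direct comparisons of 7 days with the earlier times differed by the test itself. Against 1 h, 21 probes differed. Those named by the rule were Fkbp5 (-2.10), Tsc22d3 (-1.90), both Creld2 probes (-1.42 and -1.27), Tmem174 (0.87), Ell3 (1.24) and Cirbp (1.30), to which 1 Per2 probe (-1.02), Hsp90b1 (-0.83) and Mrnip (0.67) were added, all as log2 differences of 7 days minus 1 h. Against 6 h, 7 probes differed, among them Hsp90b1 (-0.75), Mrnip (0.71), Olfml1 (0.75) and Acsm5 (0.92).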

How the results depend on the processing

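The count of regulated transcripts at 7 days stayed at 0 in all 18 alternatives, including an adjusted p under 0.05 with no fold threshold. The count at an unadjusted p under 0.05 (909) ranged from 582 to 1154 when 1 array was left out; it was 582 without control replicate 1. The lowest adjusted p was 0.018 without control replicate 3 and 1.0 without control replicate 1. Deviations from the group mean of same-numbered 7-day and control arrays correlated at r = 0.03, -0.06 and 0.14, against -0.15 to 0.13 for other pairs. So few values cannot show whether same-numbered arrays shared a batch. With the replicate block the count was 887, and the block changed no call at 7 days. The use of control replicate 3 as the only control and of the adipose level as a covariate were chosen after seeing the data.

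List medians moved as follows. With the background mode subtracted they were 0.20 for the clock, 0.31 for the glucocorticoid list, -0.46 for lipid synthesis and -1.39 for the adipose list. With control replicate 3 alone they were 0.031 (clock), -0.15 (lipid synthesis), -0.0068 (adipose) and -0.054 (heat shock), and with the covariate 0.27 (glucocorticoid) and -0.050 (adipose). The covariate is the mean of the adipose list, so the last value is largely fixed in advance. Leaving out 1 array gave medians from 0.072 to 0.16 for the clock, and from 0.10 to 0.32 for the glucocorticoid list. The 21 and 7 direct calls became 5 to 18 and 0 to 1 when 1 array was left out.

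Of 112 named genes, 105 were recomputed in the alternatives, and 95 of these kept their direction in all 17 settings. Creld2 was not among the 105. Its brighter probe turned from -0.02 to 0.23 with control replicate 3 alone and to 0.029 with the covariate. Among the 105, the direction turned with control replicate 3 alone for Acsm3 (0.12), Adipoq (0.045), Cidea (0.045), Cidec (0.23), Lipe (0.002), Pnpla2 (0.11), Ppp1r3c (0.065), Pygl (0.089) and Scd1 (0.035). With the covariate it turned for Acsm3 (0.039), Adipoq (0.039), Cidec (0.23), Fkbp5 (-0.071), Pnpla2 (0.15) and Scd1 (0.041). Adipoq, Cidec, Pnpla2 and Scd1 are members of the list that forms the covariate. Fkbp5 also turned with cyclic loess (-0.003) and without 7-day replicate 3 (-0.10). The cause was not tested. The filter on detection p-values was not run, because the columns of that table could not be mapped to samples.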
